A study of Mus musculus with 12 samples.

Results

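A set of 10 genes was followed across 4 genotypes of mouse embryonic stem cells: Trh, Psors1c2, Cd37, Thy1, Atp1b2, Pmp22, Hebp1, Cited1, Klhl13 and Fam111a. They were picked by name, for large differences in cells without the helicase DHX36, and for belonging to no lineage or pathway group. They are 10 of the 32285 genes in the count table and 10 of the 12765 genes that passed the expression filter. Values from the DHX36/FANCJ double knockout and the DHX36 knockout chose them, so those differences are given below as descriptions without a test. How each gene depended on a second helicase, FANCJ, was tested in a fit over the whole table. Those tests are not independent of the choice, because they use the same libraries, and for Pmp22 the double knockout is what set it apart. The adjusted p-values were computed over all genes tested and do not correct for this choice. They set each difference against the spread between these libraries and are no independent evidence. Nothing is read from how many of the 10 passed.

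DHX36 is a DEAH-box helicase that unwinds G-quadruplexes, folded structures that form where runs of guanines lie close together in DNA or RNA. FANCJ, whose mouse gene is Brip1, is a helicase of the Fanconi anaemia pathway that unwinds G-quadruplexes in DNA during replication. In a cell, a G-quadruplex in a promoter or a transcript can change how much RNA a gene gives.

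The libraries were of DHX36/FANCJ KO cells (the double knockout), DHX36 KO cells, FANCJ KO cells and WT cells, 3 libraries each and 12 in all. All were of the untreated 129/Ola-derived IB10 line, grown with serum and leukaemia inhibitory factor. RNA was sequenced in bulk with a protocol like CEL-Seq2, which reads the 3′ ends of transcripts. The labels do not say whether a genotype was 1 clone or several, or whether its libraries came from separate cultures, so the p-values measure only the spread between these libraries, which may be technical.

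Total counts ran between 4284785 and 14721931 a library, and the double knockout libraries were all deeper than the WT ones. Levels are given as CPM, that is, counts divided by the normalised total of the library and put on a common scale. Dhx36 itself stood at 13.9 ± 1.54 CPM in the double knockout and 10.5 ± 1.45 CPM in the DHX36 knockout, against 55.6 ± 3.57 CPM in the FANCJ knockout and 54.1 ± 3.79 CPM in WT cells (SD, n = 3 each). Brip1 stood at 0.414 ± 0.295 CPM in the double knockout and 0.338 ± 0.253 CPM in the FANCJ knockout, against 6.93 ± 0.486 CPM in the DHX36 knockout and 6.87 ± 0.154 CPM in WT cells. The sources used here do not state which parts of the 2 genes were deleted, and the 3′ tags that remain do not measure intact transcripts. All 10 embryonic stem cell markers examined, Pou5f1, Nanog and Sox2 among them, had counts in every library. Their summed level was 6475 to 6522 CPM in the double knockout, 5248 to 5531 CPM in the DHX36 knockout, 4166 to 4374 CPM in the FANCJ knockout and 4610.3 to 4714 CPM in WT cells. Summed neural markers were at 284 to 301 CPM in the double knockout, 336 to 349 CPM in the DHX36 knockout, 366 to 398 CPM in FANCJ KO cells and 399 to 419 CPM in WT cells. Most of the neural sum came from Stmn2 and Tubb3, with means of 197 and 129 CPM. Both sums moved with genotype, as the 10 genes did, and their part in the results was not tested. In bulk samples, fewer cells of a type and less RNA per cell cannot be told apart.

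Because both helicases act on G-quadruplexes, the sequence motif of such a structure was searched for near the 10 genes. The motif was 4 runs of at least 3 G with loops of 1 to 7 bases, on either strand. Loops could hold any base, G included, so a long stretch of G can count as several runs. The search covered RefSeq promoters of build GRCm38.p6, which run from 250 bases before a start site to 50 after it. Promoters were at hand for 8 of the genes, all but Thy1 and Atp1b2, and 3 of the 8 had a motif in at least 1 of their promoters: Pmp22, Klhl13 and Cited1. Over all tested genes with a promoter, 3237 of 9988 had one (32.4%). Over single promoters, 6110 of 32851 had one (18.6%), against 4 of the 18 promoters of the 8 genes. Other promoters of Pmp22 and Klhl13 had none, and the Klhl13 promoters with a motif overlapped each other. The sites of Pmp22 and Klhl13 are shown because these genes had the largest interaction of DHX36 and FANCJ loss, described further on. Whether motif and interaction go together was not tested. Trh passed in the interaction without a promoter motif, and Cited1 had a motif but did not pass (adjusted p = 0.194, edgeR). The G runs are in capitals, and each site is read 5′ to 3′ on the strand opposite to the gene.
Pmp22 promoter, chr11:63131390-63131411: GGGGGcaggcGGGcGGGcGGGG
Klhl13 promoter, chrX:23365068-23365090: GGGGGtGGGGGataaGGGaGGGG
Klhl13 promoter, chrX:23365132-23365155: GGGaGGGGagcgtgtGGGcGGGGG

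In the longest protein-coding transcript of each gene (GENCODE M21), the same motif on the sense strand was found in 2 of the 10 genes, Thy1 and Hebp1, and in 2787 of 12257 tested genes searched (22.7%). The 2 sites are shown because a motif in the RNA is one that an RNA helicase could meet. That of Thy1 lay at bases 1062 to 1078 of a transcript of 1735 bases, and that of Hebp1 at bases 747 to 765 of 1058. The Thy1 match counts its long stretch of G as several runs, with G bases as loops.
Thy1 transcript: GGGGaGGGGGGGGGGGG
Hebp1 transcript: GGGtcaaGGGGcGGGaGGG
A match describes letters and is no measurement of a structure or of binding. With loops of up to 12 bases, 4 of the 8 genes had a promoter motif and 3 of the 10 a transcript motif, against 48.0% and 37.7% of the tested genes.

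The first genes encode secreted or surface proteins. Trh, on chromosome 6 (GRCm38 chr6:92242061-92244650, minus strand), encodes the precursor of thyrotropin-releasing hormone, a small peptide known from the hypothalamus. Its level was 84.2, 68.2 and 98.0 CPM in the double knockout, 194, 211 and 189 CPM in the DHX36 knockout, 25.9, 29.4 and 29.5 CPM in the FANCJ knockout and 39.6, 36.1 and 35.6 CPM in WT cells. The 4 genotypes did not overlap, with the DHX36 knockout highest and the FANCJ knockout lowest. The log2 fold change was 2.41 (SE 0.12) for the DHX36 knockout over WT and 1.57 (SE 0.12) for the double knockout over the FANCJ knockout.

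Psors1c2 lies in the major histocompatibility region near Pou5f1 (chr17:35533201-35534647, plus strand), and its human counterpart is named after a psoriasis susceptibility locus. It stood at 87.7, 89.1 and 96.8 CPM in the double knockout, 159, 174 and 178 CPM in the DHX36 knockout, 31.1, 37.9 and 28.9 CPM in the FANCJ knockout and 50.9, 35.4 and 51.5 CPM in WT cells. The order was that of Trh, but here the FANCJ knockout and WT overlapped. Its log2 fold change was 1.90 (SE 0.12) for the DHX36 knockout over WT and 1.47 (SE 0.12) for the double knockout over the FANCJ knockout. Among the 10 genes, Trh and Psors1c2 had the most similar profiles, with a root mean square difference of 0.258 log2 units between their centred levels over the 12 libraries.

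Cd37 (chr7:45233632-45239115, minus strand) encodes a tetraspanin, a membrane protein that organises surface receptors, best known from B cells. It stood at 113, 111 and 107 CPM in the double knockout and 87.7, 72.3 and 62.3 CPM in the DHX36 knockout, against 16, 11.3 and 9.70 CPM in the FANCJ knockout and 16.8, 10.1 and 11.9 CPM in WT cells. All 6 libraries without DHX36 lay above all 6 with it, and the double knockout lay above the DHX36 knockout. The fold was 5.77 for the DHX36 knockout over WT (log2 2.53, SE 0.17) and 8.77 for the double knockout over the FANCJ knockout (log2 3.13, SE 0.16), the second being the largest fold of the 10 genes in either comparison. Cd37 overlaps Tead2 on the opposite strand, and the sources used here do not state whether counting used strand. Tead2 differed by 0.25 in log2 between the DHX36 knockout and WT (adjusted p = 0.234, edgeR). Summed leukocyte markers did not follow Cd37 in the DHX36 knockout, where they overlapped WT and lay below the FANCJ knockout. The markers reached their highest sum in the double knockout, as Cd37 did. Their sum over 9 genes ran between 31.0 and 46.7 CPM in the double knockout, between 21.5 and 23.7 CPM in the DHX36 knockout, between 26.9 and 32.0 CPM in the FANCJ knockout and between 16.4 and 24.1 CPM in WT cells, most of it from Laptm5. Of the 9, 6 had counts in every library of each genotype. The defining marker Ptprc stayed at or below 0.638 CPM in all 12 libraries, and the part of such cells in the result was not tested.

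Thy1 (chr9:44043384-44048579, plus strand) encodes a surface glycoprotein held by a lipid (GPI) anchor, known from thymocytes, neurons and fibroblasts. Its level was 11.9, 11.8 and 13.0 CPM in the double knockout, 16.5, 15.2 and 13.5 CPM in the DHX36 knockout, 3.87, 4.65 and 6.60 CPM in the FANCJ knockout and 4.65, 2.12 and 5.62 CPM in WT cells. It was the gene with the fewest counts, 12 to 35 in each library of the FANCJ knockout and WT, which overlapped. The log2 fold change was 1.91 (SE 0.24) for the DHX36 knockout over WT, but 1.54 without the lowest WT library, number 2. It was 1.32 (SE 0.21) for the double knockout over the FANCJ knockout. Summed fibroblast markers ran the other way, between 24.6 and 26.7 CPM in the double knockout, between 69.3 and 84.6 CPM in the DHX36 knockout, between 91.2 and 97.6 CPM in the FANCJ knockout and between 95.3 and 102.8 CPM in WT cells, and their part in the result was not tested. Of the 10 fibroblast markers, only Col1a1 had a mean of at least 10 CPM, at 47.9 CPM. Counts in every library of each genotype were found for 6 of them.

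Atp1b2 (chr11:69599736-69605942, minus strand) encodes the beta 2 subunit of the sodium-potassium ATPase, which also serves as an adhesion molecule on glia. It stood at 75.0, 68.0 and 85.5 CPM in the double knockout and 54.9, 54.6 and 69.4 CPM in the DHX36 knockout, against 27.3, 20.7 and 24.6 CPM in the FANCJ knockout and 19.9, 23.0 and 21.3 CPM in WT cells. The libraries without DHX36 lay apart from those with it, while within each of these sets the genotypes overlapped. The log2 fold change was 1.48 (SE 0.14) with FANCJ present and 1.65 (SE 0.13) without it.

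Pmp22 (chr11:63128982-63159547, plus strand) encodes a membrane protein of compact myelin, whose dosage causes hereditary neuropathies in humans. Its level was 30.6, 28.9 and 25.0 CPM in the double knockout, 87.2, 77.0 and 79.7 CPM in the DHX36 knockout, 94.2, 101.3 and 94.7 CPM in the FANCJ knockout and 56.5, 59.8 and 59.5 CPM in WT cells. No genotype overlapped another: both single knockouts lay above WT and the double knockout below it. Of the 10 genes only Pmp22 had opposite signs in the 2 comparisons, with log2 0.47 (SE 0.10) for the DHX36 knockout over WT and -1.78 (SE 0.09) for the double knockout over the FANCJ knockout. By absolute log2 fold change it ranked 3620 of 12765 in the DHX36 knockout over WT, so its place among strongly DHX36-dependent genes rests on cells that also lack FANCJ. Schwann cell and myelin markers summed to between 31.2 and 36.8 CPM in the double knockout, 30.2 and 30.8 CPM in the DHX36 knockout, 26.2 and 28.6 CPM in the FANCJ knockout and 22.6 and 32.6 CPM in WT cells. Their part in the result was not tested. Of the 6 Schwann cell and myelin markers, 4 had counts in every library of each genotype. Only Prx had a mean of at least 10 CPM, at 12.4 CPM.

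The remaining genes act inside the cell. Hebp1, also on chromosome 6 (chr6:135137522-135198022, minus strand), encodes a small haem-binding protein. It stood at 30.9, 35.3 and 38.2 CPM in the double knockout and 43.2, 56.0 and 42.0 CPM in the DHX36 knockout, against 13.3, 16.1 and 13.8 CPM in the FANCJ knockout and 16.2, 15.4 and 13.3 CPM in WT cells. The DHX36 knockout was highest, the double knockout next, and the other two genotypes overlapped. The log2 fold change was 1.64 (SE 0.14) for the DHX36 knockout over WT and 1.27 (SE 0.14) for the double knockout over the FANCJ knockout. Hebp1 overlaps Fam234b on the opposite strand, which differed by 0.73 between the DHX36 knockout and WT (adjusted p = 0.0563, edgeR). Fam234b was also 0.77 higher in the double than in the FANCJ knockout (adjusted p = 0.0323, edgeR). Reads of the pair cannot be told apart if counting ignored strand.

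Cited1 (chrX:102247381-102252181, minus strand) encodes a transcriptional coactivator without a DNA-binding domain that works through CBP and p300. Its level was 6.97, 8.69 and 9.44 CPM in the double knockout and 12, 12.5 and 10.1 CPM in the DHX36 knockout, against 29.5, 37.1 and 30.1 CPM in the FANCJ knockout and 34.8, 30.2 and 33.0 CPM in WT cells. The 6 libraries without DHX36 lay below the 6 with it, and the double knockout lowest of all. The log2 fold change was -1.51 (SE 0.15) with FANCJ present and -1.96 (SE 0.14) without it.

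Klhl13 (chrX:23219271-23365082, minus strand) encodes an adaptor that brings substrates to the CUL3 ubiquitin ligase and, in human cells, acts in mitosis. It stood at 134, 125 and 121 CPM in the double knockout, 51.3, 57.8 and 57.8 CPM in the DHX36 knockout, 196, 172 and 198 CPM in the FANCJ knockout and 153, 151 and 158 CPM in WT cells. The 4 genotypes did not overlap, and the double knockout lay nearer to WT than to the DHX36 knockout. The log2 fold change was -1.47 (SE 0.09) for the DHX36 knockout over WT and -0.57 (SE 0.08) for the double knockout over the FANCJ knockout.

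Fam111a (chr19:12545740-12589768, plus strand) encodes a protease that, in human cells, binds the replication clamp PCNA and clears protein obstacles from replication forks. It stood at 12.3, 13.3 and 11.5 CPM in the double knockout and 7.23, 11.5 and 7.40 CPM in the DHX36 knockout, against 68.3, 61.4 and 64.2 CPM in the FANCJ knockout and 62.4, 55.7 and 58.3 CPM in WT cells. The groups without and with DHX36 were far apart, and within each the genotypes overlapped. Its level was 6.93-fold lower in the DHX36 knockout than in WT (log2 -2.79, SE 0.14) and 5.22-fold lower in the double knockout than in the FANCJ knockout (log2 -2.38, SE 0.13).

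**Figure D1:**
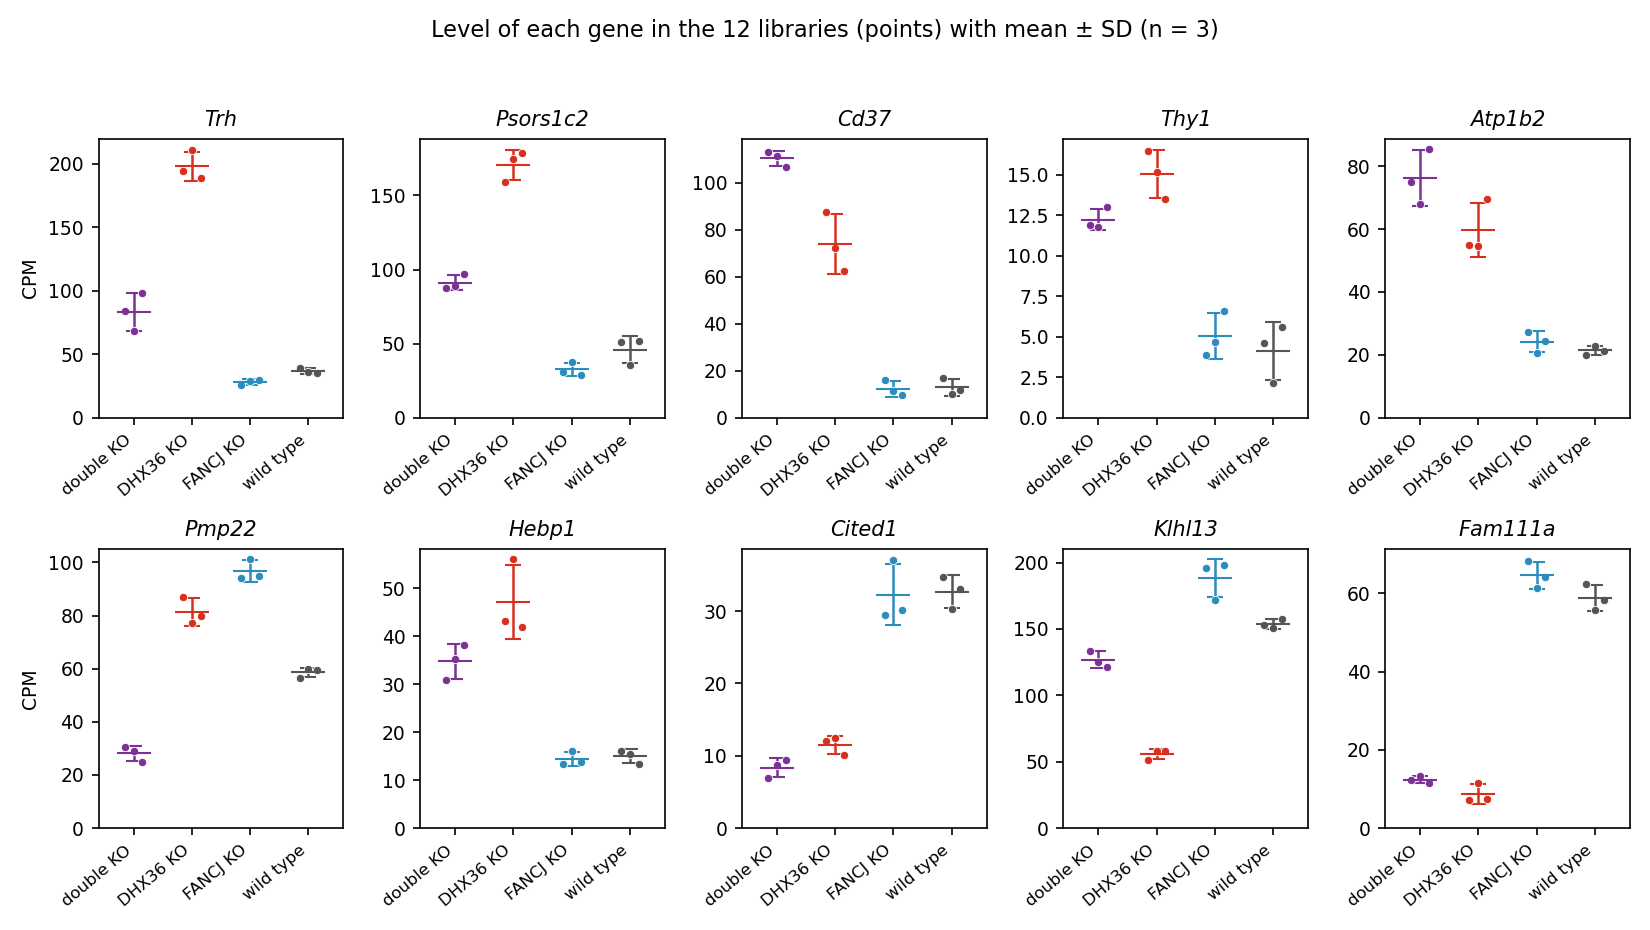
Level of each of the 10 genes in CPM (vertical axes, from 0) in double knockout, DHX36 knockout, FANCJ knockout and WT libraries; points are libraries, the long dash is the mean and the bars are 1 SD (n = 3). Cd37, Atp1b2 and Fam111a split into libraries without and with DHX36, whereas Pmp22 is above WT in both single knockouts and below it in the double knockout.

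Set side by side, the 10 genes were separate between the DHX36 knockout and WT in all libraries, against 37.6% of all genes tested, and likewise between the double and the FANCJ knockout, against 48.7%. At the adjusted threshold of 0.05 the shares called over all genes were 24.4% and 36.8%. Since these contrasts chose the genes, nothing is read from the counts. All but Pmp22, 9 genes, had the same sign in both comparisons. The choice of the genes favoured this, so the agreement is also only a description.

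**Figure D2:**
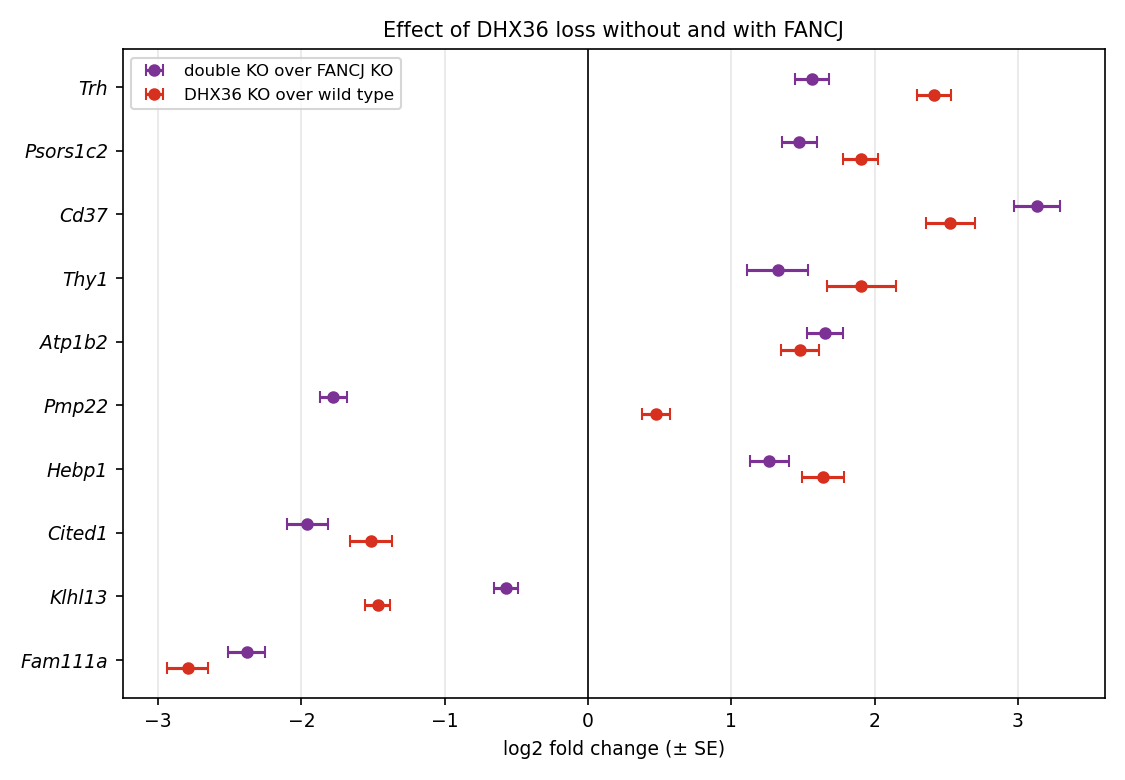
Log2 fold change of each gene with its SE (horizontal axis) for the double knockout over the FANCJ knockout and for the DHX36 knockout over WT, shown as a description of genes chosen on these differences. Pmp22 has opposite signs, at -1.78 and 0.47, and Klhl13 differs in size, at -0.57 and -1.47.

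FANCJ loss in cells that have DHX36 changed 1 of the 10 genes. Pmp22 rose by 0.72 in log2 (SE 0.10), or 1.65-fold, in the FANCJ knockout over WT (adjusted p = 0.000145, edgeR's quasi-likelihood test with Benjamini-Hochberg adjustment over 12765 genes). Of all genes tested, 2.07% passed in this comparison. Psors1c2 at -0.47 (SE 0.13, adjusted p = 0.0726), Trh at -0.40 (SE 0.13, adjusted p = 0.132) and Klhl13 at 0.29 (SE 0.09, adjusted p = 0.0835) did not pass, though each had an unadjusted p under 0.05, as did 1910 of all genes. Libraries of the FANCJ knockout and WT did not overlap for 3 genes, Trh, Pmp22 and Klhl13, against 18.7% of all genes.

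The call on Psors1c2 turned on single libraries and settings. Its adjusted p was 0.0149 without WT library 2, whose 35.4 CPM was the lowest of its group, and 0.0435 without FANCJ knockout library 2. With DESeq2, Psors1c2 and Klhl13 also passed, at adjusted p = 0.0316 and 0.0440. For Cd37, Thy1, Atp1b2, Hebp1, Cited1 and Fam111a the log2 differences lay between -0.06 and 0.29, with adjusted p from 0.639 to 0.984. The SE of these ranged from 0.12 for Fam111a to 0.29 for Thy1, so a difference of modest size was not detectable for the lower genes.

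FANCJ loss in cells without DHX36 gave calls on 9 of the 10 genes, 4 upward and 5 downward, where 19.7% of all genes were called. Both genotypes compared had a part in choosing the genes, so the count itself is no result. Pmp22 fell by 1.53 in log2 (SE 0.09, adjusted p = 3.03e-10), Trh fell by 1.25 (SE 0.10, adjusted p = 3.43e-08) and Psors1c2 fell by 0.90 (SE 0.11, adjusted p = 4.24e-06) in the double knockout relative to the DHX36 knockout. Klhl13 rose by 1.19 (SE 0.09, adjusted p = 4.45e-09) and Cd37 by 0.58 (SE 0.13, adjusted p = 0.00328). These 5 calls held whichever of the 6 libraries was left out. Relative to WT, the change of Trh, Psors1c2 and Klhl13 was toward the WT level and that of Cd37 away from it.

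The other 4 calls were smaller and less stable. Fam111a rose by 0.55 (SE 0.15, adjusted p = 0.0130), but not without double knockout library 2 or DHX36 knockout library 1 or 3 (adjusted p = 0.0556, 0.0811 and 0.0907), and its libraries overlapped. Cited1 fell by 0.46 (SE 0.15, adjusted p = 0.0390), but not without double knockout library 1 or 2 or DHX36 knockout library 1 or 2, where the adjusted p ran between 0.0697 and 0.192, nor in a fit of these 2 genotypes alone (adjusted p = 0.0540). Hebp1 fell by 0.43 (SE 0.12, adjusted p = 0.0142), but not without double knockout library 1 or DHX36 knockout library 2 (adjusted p = 0.0900 and 0.110). Atp1b2 rose by 0.35 (SE 0.11, adjusted p = 0.0360), but not without double knockout library 1 or 3 or DHX36 knockout library 1 or 2, where the adjusted p ran between 0.0751 and 0.156. With every library thinned to the same depth, Fam111a, Cited1 and Atp1b2 no longer passed, at adjusted p = 0.228, 0.426 and 0.0515. Thy1 did not pass, at -0.29 (SE 0.18, adjusted p = 0.262). All but Atp1b2 and Fam111a, 8 genes, did not overlap between the double and the DHX36 knockout, against 36.9% of all genes.

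**Figure D3:**
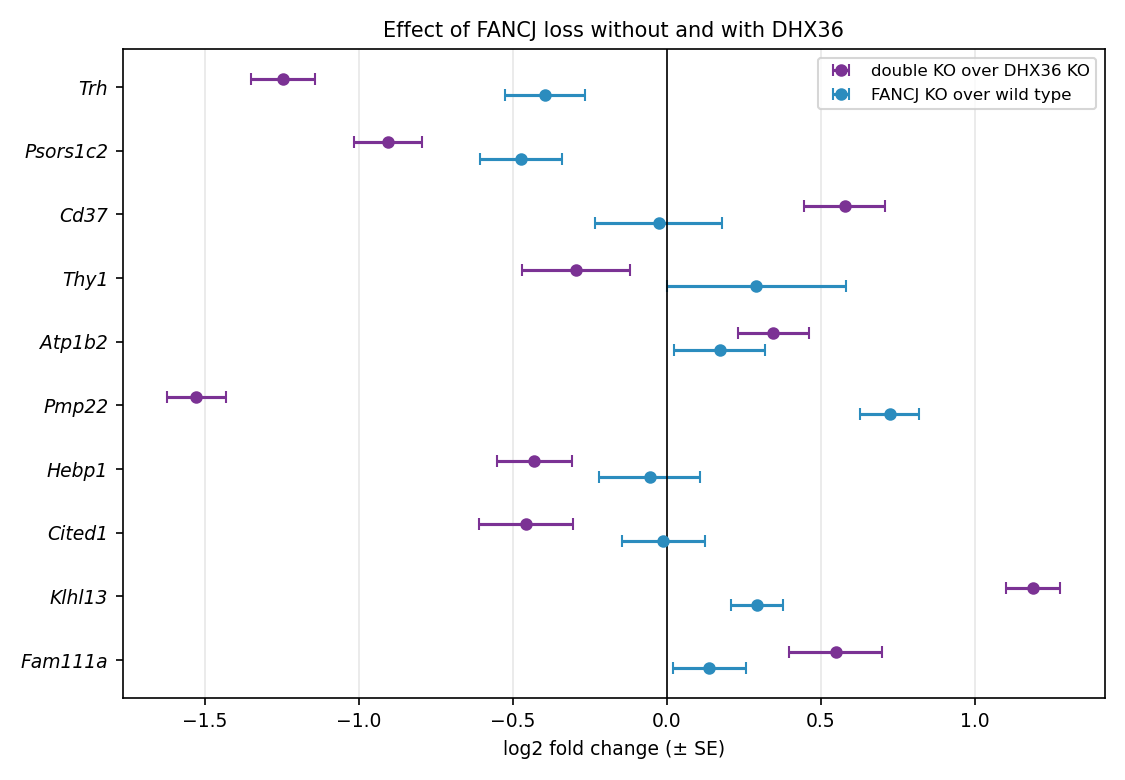
Log2 fold change of each gene with its SE (horizontal axis) for FANCJ loss without DHX36 (double knockout over DHX36 knockout) and with DHX36 (FANCJ knockout over WT). Pmp22 is at -1.53 without DHX36 and 0.72 with it, and Trh and Klhl13 lie further from 0 without DHX36.

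Whether the effect of FANCJ loss differed between cells without and with DHX36 was tested by the interaction, the double knockout minus the DHX36 knockout less the FANCJ knockout minus WT. The same value is the difference of the 2 comparisons that chose the genes, so the number of genes that passed, 3 of the 10 where 8.79% of all genes were called, is a description. The 3 were Pmp22 at -2.25 (SE 0.13, adjusted p = 6.07e-10), Klhl13 at 0.90 (SE 0.12, adjusted p = 4.62e-05) and Trh at -0.85 (SE 0.17, adjusted p = 0.00193). By absolute size, the interaction of Pmp22 ranked 84 of 12765 genes. The other 7 had adjusted p between 0.130 and 0.637. Cd37 was at 0.60 (SE 0.25, adjusted p = 0.139) and passed without FANCJ knockout library 1 (adjusted p = 0.0439) or without the expression filter (adjusted p = 0.0383), and Fam111a was at 0.41 (SE 0.19, adjusted p = 0.209) and passed without DHX36 knockout library 2 (adjusted p = 0.0348).

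The position of Trh and Hebp1 matters for these results, since RNA from chromosome 6 as a whole was higher in the DHX36 knockout. Chromosome 6 gave between 4.11 and 4.13% of nuclear gene counts in the double knockout libraries, between 5.65 and 5.74% in the DHX36 knockout, between 4.08 and 4.15% in the FANCJ knockout and between 4.20 and 4.27% in WT cells. With the 10 genes left out, 282 of its 584 tested genes rose and 19 fell in the DHX36 knockout over WT, and their median log2 fold change was 0.48. The medians of the other autosomes and the X chromosome in that comparison lay between -0.08 and 0.04. In the double knockout over the DHX36 knockout the chromosome 6 median was -0.47, with 18 genes up and 307 down, and in the double knockout over WT it was 0.04.

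The shift was uneven along the chromosome. In windows of 25 Mb, the median for the DHX36 knockout over WT was 0.22, 0.29 and 0.22 up to 75 Mb, and 0.54, 0.62 and 0.65 beyond it, where both Trh and Hebp1 lie. DNA copy number was not measured, and the cause of the shift was not tested. With each chromosome's median subtracted, Hebp1 differed by 0.04 between the double and the DHX36 knockout (adjusted p = 0.884), so its fall was no larger than that of its chromosome, and its interaction was 0.04 (adjusted p = 0.937). Trh then differed by -0.78 in that comparison (adjusted p = 1.75e-05) and by -0.43 in the interaction (adjusted p = 0.125), which no longer passed. Over WT, the DHX36 knockout was 1.93 higher for Trh and 1.16 higher for Hebp1 on this scale. The median subtracted there, 0.48, was that of the whole chromosome. It was below the 0.54 of the window with Trh and the 0.65 of that with Hebp1, so the local shift was not fully removed. The double knockout over the FANCJ knockout, where the chromosome 6 median was 0.08, gave 1.49 and 1.19.

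**Figure D4:**
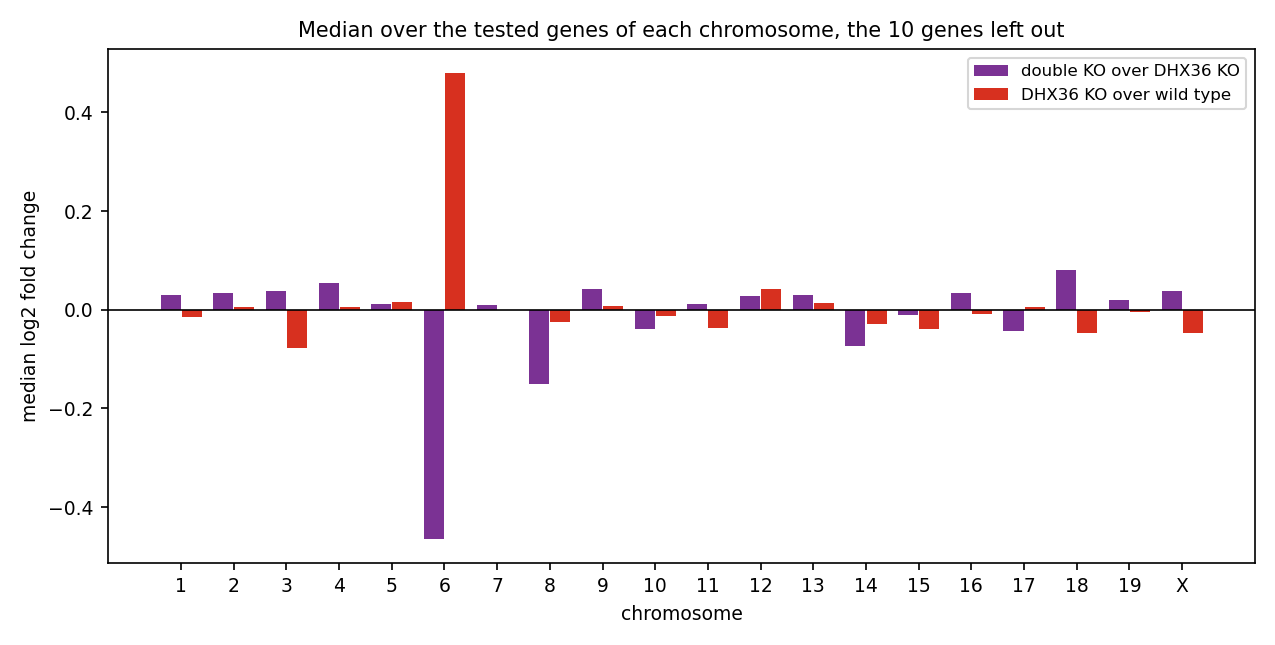
Median log2 fold change over the tested genes of each chromosome, the 10 genes left out, for the double knockout over the DHX36 knockout and for the DHX36 knockout over WT. Chromosome 6, which carries Trh and Hebp1, stands at -0.47 and 0.48, and chromosome 8 at -0.15 in the first comparison.

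Genes next to the 10 were examined in windows of 100000 bases on either side, a choice made after the values were seen. Of 40 tested neighbours, 10 rose and 2 fell in the DHX36 knockout over WT, or 30%, against 24.4% of all genes. Beside Trh all 3 neighbours, Nr2c2, Mrps25 and Rbsn, rose by 0.73 to 0.90 in log2, on the chromosome that was higher as a whole. Beside Psors1c2, 3 of 6 rose: Cdsn (1.27, adjusted p = 0.00441), a skin adhesion gene, and the class I histocompatibility genes H2-Q7 (1.51, adjusted p = 2.30e-05) and H2-Q10, which had a mean of 0.915 CPM. The class I genes have near-identical copies that can share reads, so their values are uncertain. Pou5f1, the pluripotency factor gene 22429 bases from Psors1c2, did not pass at 0.25 (adjusted p = 0.0621). In the double over the FANCJ knockout it passed, at 0.44 (adjusted p = 0.000984, edgeR). Beside Atp1b2, Trp53 differed by -0.02 (adjusted p = 0.895), while Efnb3 and Sox15 rose by 0.71 and 0.34 and Cd68 fell by 0.69. Beside Cd37, 1 of 9 rose, and beside Thy1, 1 of 5 rose and 1 fell. The 12 that passed in this comparison were all neighbours of these 5 genes. In the double over the FANCJ knockout, where 36.8% of all genes were called, others passed too. Beside Trh only Rbsn passed there, at 0.58 (adjusted p = 0.00458, edgeR). Nr2c2 at 0.38 and Mrps25 at 0.04 did not (adjusted p = 0.0527 and 0.844). Of the risers beside Psors1c2, H2-Q7 passed there, at 1.32 (adjusted p = 0.000340). Cdsn at 0.32 and H2-Q10 at 1.16 did not (adjusted p = 0.363 and 0.0932). Those that passed beside Cd37 (Aldh16a1, Ccdc155, Slc6a16, Trpm4 and Hrc) all rose, by 0.82 to 4.40, and Hrc had a mean of 0.728 CPM. Those beside Atp1b2 all rose, by 0.45 to 1.18. Beside Hebp1, Fam234b rose by 0.77 and Gprc5a fell by 0.90, and beside Fam111a, Dtx4 fell by 1.00. Cited1, Hebp1 and Fam111a had 3, 2 and 1 tested neighbours, and Pmp22 and Klhl13 had no tested gene within the window.

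Genes related to each of the 10 were taken from lists chosen with earlier results of these data known. Over the 140 related genes tested, 32.9% passed in the DHX36 knockout over WT and 19.3% in the interaction, beside 24.4% and 8.79% of all genes. In the double over the DHX36 knockout 24.3% of them passed, beside 19.7% of all genes, and in the FANCJ knockout over WT 5.71%, beside 2.07%. In the double over the FANCJ knockout 49.3% of them passed, 21 up and 48 down, beside 36.8% of all genes. In that comparison 0, 0, 6, 4, 3 and 1 genes rose in the lists of Trh, Atp1b2, Thy1, Hebp1, Klhl13 and Psors1c2. In the same order, 4, 3, 10, 5, 3 and 1 fell. The counts that follow are to be read against these shares, and the lists were not tested as groups.

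For Pmp22, the list held its family of membrane proteins. Of 5 relatives tested, none rose and 3 fell (Emp2, Perp and Tmem47) in the DHX36 knockout over WT, and 2 rose (Emp1 and Perp) in the FANCJ knockout over WT. In the double knockout over the DHX36 knockout, 3 fell (Emp1, Emp3 and Perp), and the same 3 had a negative interaction. In the double over the FANCJ knockout none rose and 4 fell (Emp1, Emp2, Emp3 and Perp), beside 36.8% of all genes called. The median interaction of the list was -0.90, against 0.00 over all genes. Emp1, an epithelial membrane protein gene, stood at 47.1, 41.6 and 41.8 CPM in the double knockout, 87.7, 96.0 and 90.6 CPM in the DHX36 knockout, 120.0, 112 and 121 CPM in the FANCJ knockout and 80.2, 75.5 and 78.0 CPM in WT cells. Its order of genotypes was that of Pmp22, with the double knockout below all others and both single knockouts above WT. The interaction was -1.66 for Emp1 (SE 0.12, adjusted p = 1.67e-08), -1.65 for Emp3 (SE 0.17, adjusted p = 1.55e-06) and -0.90 for Perp, a p53 target gene (SE 0.14, adjusted p = 0.000259). Emp1 lies on chromosome 6, where the median interaction was -0.41. Its difference of 0.23 in the DHX36 knockout over WT did not pass (adjusted p = 0.0572, edgeR). That was less than the chromosome 6 median of 0.48, so relative to its chromosome Emp1 was not higher there. Emp3 had 13.4 ± 1.02 CPM in the double knockout, 33.3 ± 2.34 CPM in the DHX36 knockout, 34.5 ± 1.74 CPM in the FANCJ knockout and 27.4 ± 4.04 CPM in WT cells (SD, n = 3 each).

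**Figure D5:**
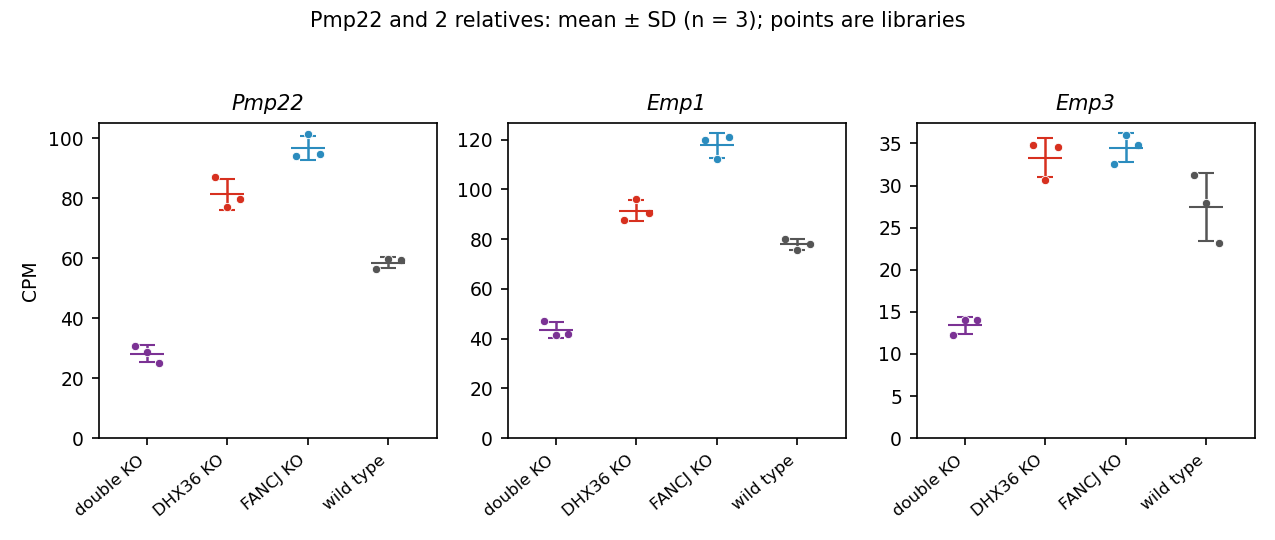
Levels of Pmp22 and its relatives Emp1 and Emp3 in CPM (vertical axes, from 0) in double knockout, DHX36 knockout, FANCJ knockout and WT libraries; points are libraries, the long dash is the mean and the bars are 1 SD (n = 3). In each panel the 3 double knockout libraries lie below the other 9.

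For Cd37, 23 other tetraspanins were tested. In the DHX36 knockout over WT, 2 rose and 5 fell, beside 24.4% of all genes called. In the double over the DHX36 knockout none rose and 9 fell, beside 19.7% of all genes called, and Cd37 was higher there. In the double over the FANCJ knockout 2 rose and 12 fell, beside 36.8% of all genes called, and Cd37 was also higher there. Tspan1 had 6.89 ± 1.11 CPM in the double knockout and 5.63 ± 1.15 CPM in the DHX36 knockout, against 1.14 ± 1.52 CPM in the FANCJ knockout and 0.426 ± 0.249 CPM in WT cells, at log2 3.70 for the DHX36 knockout over WT (SE 0.61, adjusted p = 0.000111). Tspan7 fell by 1.58 in the double over the DHX36 knockout (SE 0.20, adjusted p = 6.65e-06). Of the list, 4 (Cd9, Tspan9, Tspan12 and Tspan33) lie on chromosome 6, and without them 5 of 19 fell in the double over the DHX36 knockout.

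For Cited1, 8 family members and partners were tested, of which none rose and 3 fell in the DHX36 knockout over WT. Cited4 fell by 2.21 (SE 0.24, adjusted p = 6.74e-07), Cited2 fell by 0.74 (SE 0.09, adjusted p = 2.21e-06) and Tfap2a, which encodes a transcription factor that CITED proteins bind, fell by 1.17 (SE 0.34, adjusted p = 0.0159). Cited4 then stood at 9.50 ± 1.53 CPM in the double knockout and 2.60 ± 0.910 CPM in the DHX36 knockout, against 9.12 ± 1.53 CPM in the FANCJ knockout and 12.6 ± 2.03 CPM in WT cells. It was higher by 1.79 in the double than in the DHX36 knockout (SE 0.23, adjusted p = 6.52e-06), where Cited1 was lower. In the double over the FANCJ knockout, 3 of the list rose (Tfap2c, Ep300 and Crebbp) and 2 fell (Cited2 and Tfap2a). Cited4 differed there by 0.03 (SE 0.19, adjusted p = 0.919, edgeR). Cited2 stood at 74.4 ± 3.69 CPM in the double knockout and 81.5 ± 5.93 CPM in the DHX36 knockout, against 141 ± 7.08 CPM in the FANCJ knockout and 136 ± 8.99 CPM in WT cells.

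For Atp1b2, 8 other subunits and regulators of the sodium-potassium ATPase were tested. In the DHX36 knockout over WT, 1 rose and 2 fell. Those that fell were the beta 1 subunit gene Atp1b1 (-0.55, SE 0.09, adjusted p = 0.000180) and the regulator gene Fxyd6 (-1.12, SE 0.12, adjusted p = 3.22e-07). Atp1b1 had 90.9 ± 4.0 CPM in the double knockout and 88.7 ± 7.90 CPM in the DHX36 knockout, against 139 ± 7.84 CPM in the FANCJ knockout and 129 ± 13.6 CPM in WT cells.

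For Trh, 6 genes of peptide processing were tested, and 1 rose and 1 fell in the DHX36 knockout over WT. The riser was Qpct, glutaminyl cyclase, which forms the first residue of the peptide, at 1.19 ± 0.282 CPM in the double knockout, 1.38 ± 0.242 CPM in the DHX36 knockout, 1.04 ± 0.246 CPM in the FANCJ knockout and 0.0738 ± 0.128 CPM in WT cells, too few counts for a fold. Pam, which makes the amidated end of the peptide, fell by 0.73 in the double over the DHX36 knockout (SE 0.24, adjusted p = 0.0324). In that comparison 1 of the 6 rose, the convertase gene Pcsk6 by 0.76 (SE 0.18, adjusted p = 0.00466), and 2 fell, Pam and Cpe.

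For Thy1, 22 GPI-anchored and Ly6 family genes were tested. Of these, 6 rose and 4 fell in the DHX36 knockout over WT, and 3 rose and 5 fell in the double over the DHX36 knockout. Nt5e, which encodes the ectonucleotidase CD73, rose by 0.75 in the first (SE 0.15, adjusted p = 0.000839) and fell by 1.23 in the second (SE 0.14, adjusted p = 1.73e-06). Efna5, an ephrin gene, fell by 0.45 in the first (SE 0.16, adjusted p = 0.0376) and by 1.05 in the second (SE 0.16, adjusted p = 4.85e-05).

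For Fam111a, 15 genes of replication obstacles and PCNA loading were tested, of which none rose and 3 fell in the DHX36 knockout over WT: Pcna by 0.32 (SE 0.07, adjusted p = 0.00237), Tdp1 by 0.38 (SE 0.11, adjusted p = 0.0133) and Parp1 by 0.32 (SE 0.11, adjusted p = 0.0442). That is 3 of 15, where 24.4% of all genes were called. In the double over the FANCJ knockout, 2 rose, Parp1 by 0.42 and Rfc5 by 0.37. In that comparison 4 fell (Pcna, Rfc3, Tdp1 and Tdp2), where 36.8% of all genes were called. Parp1 rose by 0.33 in the double over the DHX36 knockout (SE 0.11, adjusted p = 0.0358) and had an interaction of 0.74 (SE 0.16, adjusted p = 0.00428). The level of Pcna was 630 ± 21.7 CPM in the double knockout and 640 ± 24.8 CPM in the DHX36 knockout, against 773 ± 34.4 CPM in the FANCJ knockout and 800 ± 8.55 CPM in WT cells.

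For Klhl13, 26 genes of the CUL3 ligase and its kelch adaptors were tested. In the DHX36 knockout over WT, 3 rose and 4 fell, where 24.4% of all genes were called. In the double over the DHX36 knockout 3 rose and 3 fell, where 19.7% of all genes were called, and both shares of the list were near those of all genes. Klhl24 rose by 1.05 in the first comparison (SE 0.18, adjusted p = 0.000196), and Klhl36 fell by 1.05 in the second (SE 0.25, adjusted p = 0.00461). For Hebp1, 20 genes of haem synthesis, transport and breakdown were tested, of which 2 rose and 4 fell in the DHX36 knockout over WT. Flvcr1, a haem exporter gene, rose by 0.74 (SE 0.17, adjusted p = 0.00287), and Blvra, biliverdin reductase, fell by 1.00 (SE 0.26, adjusted p = 0.00637). For Psors1c2, 7 neighbouring genes of its region were tested, of which Cdsn rose and Ddr1, a collagen receptor gene, fell by 0.78 (SE 0.13, adjusted p = 0.000160) in the DHX36 knockout over WT.

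For each of the 10 genes, the gene most like it was found among 7546 genes outside the 10 with a mean of at least 10 CPM. Likeness was the root mean square difference of centred log2 CPM over the 12 libraries, which all genes share. Of these genes, Trh and Psors1c2 were both most like Csn3, the kappa casein gene, with differences of 0.330 and 0.217. Trh was closer to Psors1c2 itself, at 0.258. Csn3 stood at 15.7 ± 0.449 CPM in the double knockout, 27.0 ± 3.63 CPM in the DHX36 knockout, 5.75 ± 1.34 CPM in the FANCJ knockout and 8.47 ± 0.854 CPM in WT cells (SD, n = 3 each), the same order of genotypes.

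Cd37 was most like Otx2 (0.354), a homeobox gene of the exit from naive pluripotency. Otx2 stood at 127 ± 10.3 CPM in the double knockout and 97.1 ± 4.42 CPM in the DHX36 knockout, against 19.8 ± 3.07 CPM in the FANCJ knockout and 20.7 ± 6.82 CPM in WT cells. Atp1b2 was most like Etv1 (0.186), an ETS transcription factor gene, Thy1 most like Pwwp2b (0.273) and Hebp1 most like Gata2 (0.190), a GATA factor gene. Gata2 lies on chromosome 6, as Hebp1 does. Pmp22 was most like Emp1 (0.195), described above.

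Among the genes that were lower without DHX36, Cited1 was most like Camk2d (0.152), a calmodulin-dependent kinase gene. Klhl13 was most like Cth (0.230), which encodes an enzyme that makes cysteine, at 41.2 ± 0.974 CPM in the double knockout and 23.5 ± 1.43 CPM in the DHX36 knockout, against 80.4 ± 5.44 CPM in the FANCJ knockout and 74.7 ± 3.83 CPM in WT cells. Fam111a was most like Spink1 (0.287), a trypsin inhibitor gene, at 3.73 ± 0.533 CPM in the double knockout and 2.43 ± 0.698 CPM in the DHX36 knockout, against 20.1 ± 1.55 CPM in the FANCJ knockout and 18.5 ± 0.853 CPM in WT cells. The genes nearest to 9 of the 10 came from other families, Emp1 being the exception.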

How the data were processed

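The authors deposited raw counts per gene and library, not normalised, for 12 libraries in 4 genotypes. Per the submitters' processing notes, BWA and the builds GRCm38 and hg38 were used; the sources used here do not state whether a count is a read or a collapsed molecule, or how strand and multiple alignments were handled. Spike-in rows (4 to 30 counts a library) were left out of totals and tests. Coordinates are from GENCODE M21 (GRCm38), which held 12763 of the 12765 gene identifiers tested.

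The test was the quasi-likelihood test of edgeR 4.0.16 (R 4.3.3): trimmed-mean normalisation, the default expression filter by genotype, 1 model with genotype as its only term over all 12 libraries, and Benjamini-Hochberg adjustment over all genes at 0.05, two-sided. SE is the log2 fold change divided by the root of its F statistic. CPM used the normalised totals. For each gene's closest profile, log2 CPM had a prior count of 2. The members and the lists of related genes were chosen with earlier results of these data known. Named genes are the 10, the closest profile of each, up to 3 genes of each list with the largest called change, and the targeted pair; other genes, such as neighbours, relatives of Pmp22 and genes on chromosome 6, were named after their values were seen. Alternatives were size factors by relative log expression, DESeq2 1.42.0, no filter, a mean of at least 20 CPM, a replicate block, only the genotypes compared, thinning to equal depth, leaving out each library and, chosen after seeing the data, subtracting each chromosome's median with the SE kept as it was. The method was tested on simulated data. A few genes that the rule names are not reported here.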

Additional observations from a re-analysis of the deposited data

Results flagged for a closer look

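The effect of FANCJ loss differed between cells without and with DHX36 for 3 genes, by the interaction in edgeR over all genes tested. The interaction is the difference of the 2 comparisons that chose the genes, so that 3 of them passed is no independent result. For Pmp22 the difference was -2.25 in log2, the gene being lower in all 3 double knockout libraries than in the DHX36 knockout and higher in all 3 FANCJ knockout libraries than in WT. For Klhl13 it was 0.90, with a rise of 1.19 in the double over the DHX36 knockout and a value of 0.29 in the FANCJ knockout over WT (adjusted p = 0.0835). For Trh it was -0.85, and it no longer passed once the shift of chromosome 6 was subtracted (-0.43, adjusted p = 0.125). For Pmp22 and Klhl13 the difference passed under every alternative run.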

How the results depend on the processing

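Of the 10 genes, the FANCJ knockout over WT called 1, but 2 without the filter or thinned to equal depth and 3 with DESeq2, and 1 to 2 with single libraries left out. Over all genes that comparison called 264, but 418 without the filter, 159 with only the genotypes compared and 110 to 198 with single libraries left out. The double over the DHX36 knockout called 9 of the 10 genes and 6 to 9 over the alternatives. With a mean of at least 20 CPM, it called 1378 genes in all, not 2512, and the interaction 741, not 1122; fewer genes are tested there. The interaction called 3 of the 10 genes and 2 to 4 over the alternatives, with Cd37 added without the filter. It could not be fitted with only 2 genotypes. Values near 0 in the FANCJ knockout over WT changed sign. Cited1 was at 0.00253 without the filter and 0.021 thinned. With single libraries left out, Cited1 ran between -0.13 and 0.064, Cd37 between -0.26 and 0.21, Hebp1 between -0.15 and 0.018 and Thy1 between -0.064 and 0.57. With chromosome medians subtracted, Hebp1 turned to 0.036 in the double over the DHX36 knockout and to 0.041 in the interaction. That change follows from the subtraction, since the chromosome 6 medians, -0.47 and -0.41, were more negative than its values, -0.43 and -0.37. The cause of the other shifts was not tested. Size factors by relative log expression changed no call of the 10 genes.

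Libraries with the same number did not deviate together (correlations between -0.06 and 0.05, 0 of 12 over 0.1). The replicate block called 1, 9 and 3 of the 10 genes, as without it, and 233, 2387 and 1039 genes in all.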
